A study of Mus musculus with 8 samples.

Results

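The organic anion and cation transporters were taken as every non-control probe of the 8 arrays whose gene name starts with Slc22a or Slco followed by a digit. This gave 74 of 56605 non-control probes, which stand for 41 of 36825 gene names, 26 in the SLC22 family and 15 in the SLCO family. Whole kidneys of male C57BLKS/J Iar mice aged 20 weeks were measured on one-colour Agilent arrays, with 2 mice in each of 4 groups. Normal mice carried m+/m+. The other 3 groups carried +Leprdb/+Leprdb, the db/db genotype of the leptin receptor gene, which gives obesity and type 2 diabetes. One db/db group was untreated, one received control-miRNA-PEI-NPs (nanoparticles with a control miRNA) and one received miRNA-181b-5p-mimic-PEI-NPs (nanoparticles that carry a synthetic miR-181b-5p). The labels used here state neither dose nor schedule, every db/db group carries the same mutation throughout the body, and no group of normal mice received nanoparticles.

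SLC22 proteins carry organic anions, organic cations, urate, carnitine or ergothioneine across cell membranes, and SLCO proteins (the OATP family) take up bulky anions such as bile salts, steroid conjugates, thyroid hormones and prostaglandins. In the kidney many of them sit in the proximal tubule, on the blood side for uptake (Slc22a6, Slc22a8, Slc22a2) or on the urine side for reabsorption (Slc22a12, Slc22a5), and together they set much of the renal handling of drugs, toxins and urate. Several rodent members, Slco1a1 among them, are known to differ between male and female kidneys and to depend on androgens.

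Levels are given as the log2 of a probe's signal minus the log2 of the array's 75th percentile, so that 0 is the brightness of that percentile. Probes differ in brightness, so levels compare arrays and not genes. The filter asked for a signal well above background in both mice of any group, which 52 of the 74 probes met and 22 did not. The 52 represent 32 tested genes, 29 of them well above background on all 8 arrays, and leave 9 genes untested: Slc22a14, Slc22a20, Slco1a5, Slco1b2 (a liver uptake transporter), Slco1c1 (a thyroid hormone transporter of brain vessels), Slco5a1, Slco6b1, Slco6c1 and Slco6d1. Among the untested genes only Slco1b2 had a probe well above background on any array, on 1 normal array. Since passing required signal in only 1 group, the tested genes favour members that are present somewhere in the design.

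Between 56.5 and 62.5% of the spots of each array were well above background, and replicates correlated across all tested genes at r = 0.976 to 0.997. Proximal tubule markers were bright throughout, with all 15 of 15 tested and a mean level of 6.76 and 7.01 on the normal arrays, 6.51 to 6.70 in the untreated and control-miRNA groups, 5.79 on mimic replicate 1 and 6.62 on mimic replicate 2. Mimic replicate 1 stood apart: 15 of the 32 transporters differed over 2-fold between the 2 mimic arrays (46.9%, against 11% of all genes), all 15 lower on replicate 1, compared with 2 in the normal, 0 in the untreated and 2 in the control-miRNA group. Markers of urothelium (6 of 7 tested) averaged 0.61 and -1.28 in the normal group, -3.32 and -3.59 in the untreated, -0.66 and -2.84 in the control-miRNA and -1.80 and -3.21 in the mimic group. Fat markers (6 of 7) averaged 0.68 and -1.98 in normal, -4.49 and -4.34 in untreated, -1.96 and -4.11 in control-miRNA and -3.36 and -3.92 in mimic mice. Podocyte markers (6 of 6) averaged -0.07 and -0.17 in normal mice and 0.74 to 1.23 on the db/db arrays, and red cell markers (3 of 3) -1.91 and -1.15 in normal mice, 1.52 to 3.04 on 5 db/db arrays and -2.51 on mimic replicate 2. Macrophage markers (4 of 4) averaged 0.28 and 0.05 in normal mice, -0.90 to -0.41 on 5 db/db arrays and 0.55 on mimic replicate 1. Liver markers (3 of 6) averaged -2.54 and -2.93 in normal mice, -1.39 to -1.11 on 5 db/db arrays and 0.84 on mimic replicate 1. On that array Fgb (4.77) and Ttr (-1.18) were above their normal values, while Alb (-1.07) was below its own (-0.50 and -0.46). Distal convoluted tubule markers (3 of 3) averaged 3.13 and 3.61 in normal mice, 4.12 to 4.67 on the same 5 db/db arrays and 3.14 on mimic replicate 1. Their part in the results was not tested. All arrays shared 1 slide, whose first row held the normal and untreated groups and whose second row held both nanoparticle groups. Normal and control-miRNA arrays shared columns, as did untreated and mimic arrays, so slide position and group cannot be told apart.

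The first question was how the transporters differ between diabetic and normal kidneys. In untreated db/db mice 6 of the 32 genes were lower and 0 were higher than in normal mice in a limma fit over all 8 arrays, adjusted over 22367 genes (adjusted p under 0.05). The background was 3.5% of all genes called, 2.26% lower and 1.24% higher; the share of calls that were higher, 35.5%, became 51.4% after quantile normalization, while the transporters called remained 0 higher. The 6 were Slco1a1, Slc22a7, Slc22a26, Slc22a12, Slc22a2 and Slco3a1. In the control-miRNA group 6 genes were again lower and 0 higher than normal, against 1.87% of all genes called and 1.19% lower, and the genes were those 6. In the mimic group 10 were lower and 0 higher, against 8.98% called and 5.93% lower; Slco3a1 was not among them and Slc22a19, Slc22a28, Slc22a30, Slco1a4 and Slco4c1 joined. The 3 comparisons share the same 2 normal mice and are not independent of each other. The median log2 difference of the 32 genes was -0.41, -0.42 and -0.82 in the untreated, control-miRNA and mimic groups, beside -0.04, -0.04 and -0.09 over all genes. In whole kidney, fewer cells of a type and less RNA per cell cannot be told apart.

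**Figure D1:**
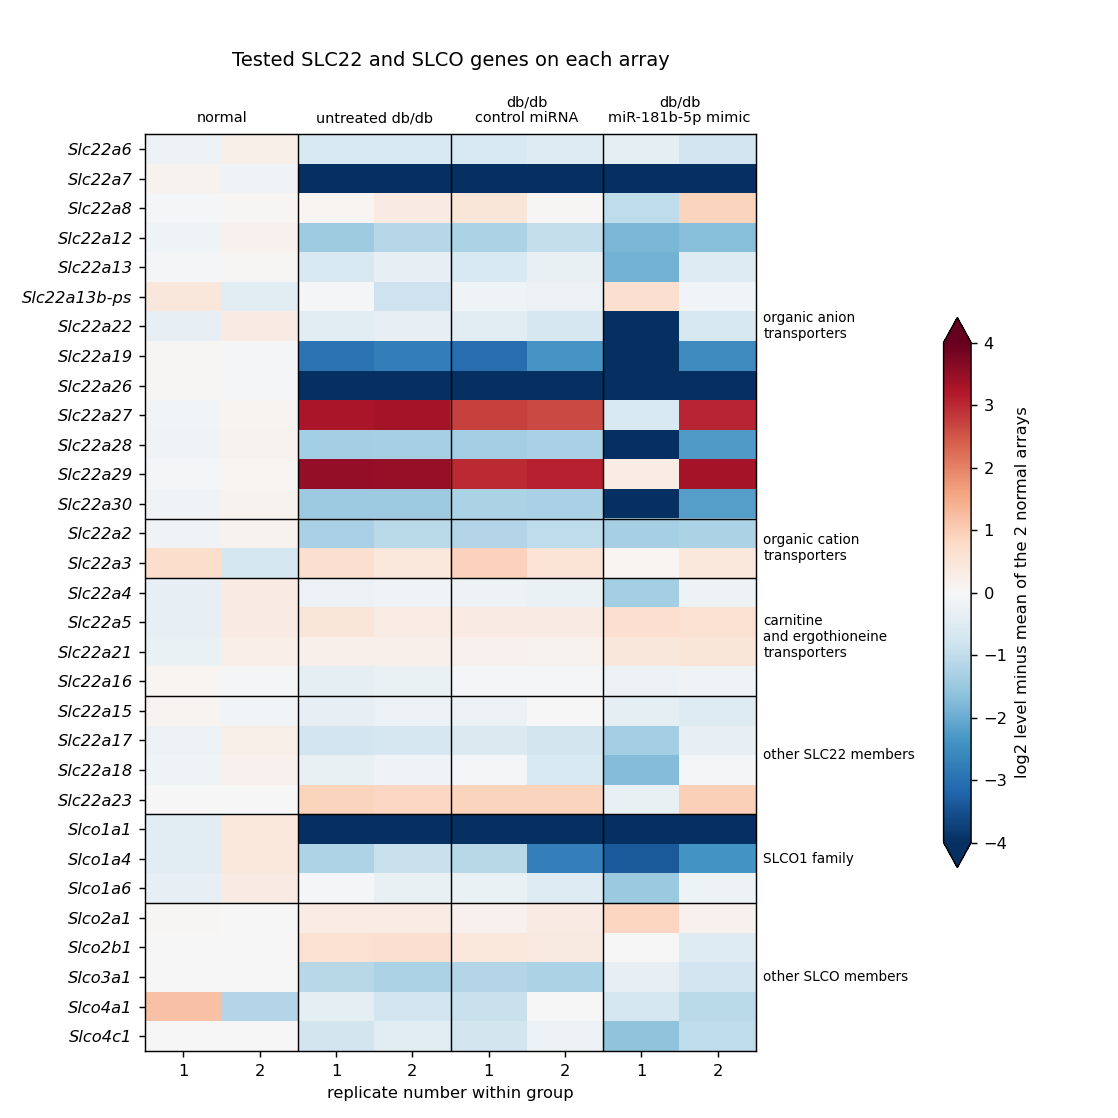
Heat map of 31 of the 32 tested SLC22 and SLCO genes (rows, grouped by substrate class or subfamily) on the 8 arrays (columns); colour is the log2 level minus the mean of the 2 normal arrays and is clipped at 4 in both directions. Slco1a1, Slc22a7 and Slc22a26 are dark blue on all 6 db/db arrays, Slc22a27 and Slc22a29 are red on 5 of them, and mimic replicate 1 is lower than replicate 2 in 23 of the 31 rows.

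The counts moved with single arrays. Leaving out either mimic array gave the same calls in untreated and control-miRNA mice against normal, since a lone mimic array adds no spread. Without mimic replicate 1, so that the gap between the mimic mice no longer entered the shared error estimate, 14 genes passed in untreated db/db mice (10 lower, 4 higher) against 14.9% of all genes, 12 in the control-miRNA group (9 lower, 3 higher) against 11.4%, and 12 in the mimic group (9 lower, 3 higher) against 8.48%. Without mimic replicate 2 the counts were 14, 12 and 19, against 14.9%, 11.4% and 28.7% of all genes. Leaving out 1 of the normal, untreated or control-miRNA arrays gave 1 to 3 members, against 0.0849 to 0.93% of all genes, in untreated mice, 0 to 3 against 0.076 to 0.237% in the control-miRNA group and 4 to 6 against 1.44 to 4.4% in the mimic group. Without regard to a test, all 6 db/db arrays lay below both normal arrays for 15 of the 32 genes and above them for 2, Slc22a29 and Slco2a1. Over all genes these shares were 20.1% and 14.0%.

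Slco1a1, which encodes Oatp1a1, an uptake carrier for steroid conjugates and bile acids on the urine side of the proximal tubule, showed a large fall in untreated db/db mice. It lay at 2.15 and 3.01 on the normal arrays, -4.47 and -4.05 in untreated, -3.67 and -3.68 in control-miRNA and -6.91 and -5.85 in mimic mice. No db/db array came within reach of the normal ones, and on both mimic arrays the probe was not well above background. The level was 115-fold lower in untreated mice (log2 difference -6.84, SE 0.42, adjusted p = 0.00365), 76.5-fold lower in control-miRNA mice (-6.26, SE 0.42, adjusted p = 0.0055) and at least 192-fold lower in mimic mice (adjusted p = 0.00123), the bound being set by the dimmest signals that count as above background. Folds of dim probes depend on the background step. With normexp correction, which adds an offset of 50 to every signal, the Slco1a1 differences were 39-fold, 33.3-fold and 48.7-fold, and all 3 passed. The mimic fold with normexp lies below the 192-fold bound, so that bound holds only for the background step used here. The measured mimic mean was -6.38 beside 2.58 in normal mice. A second Slco1a1 probe gave log2 differences of -7.87 and -6.75 in the first 2 comparisons. That probe was well above background on only 1 of the 2 untreated arrays and on neither mimic array. Slco1a1 passed under each of the 15 alternative settings that tested it in untreated mice, and under 13 of 15 in control-miRNA mice; Slc22a26 and Slc22a7, described next, kept their calls in 12 of 15 and 12 of 16 in untreated mice.

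Slc22a7, which encodes Oat2, an organic anion transporter with a wide range of small substrates including nucleobases, also fell far. Its levels were 5.82 and 5.52 in normal mice, -1.14 and -0.88 in untreated, -0.67 and -1.76 in control-miRNA and -1.50 and 0.27 in mimic mice. All 6 db/db values lay far below the normal pair, though the mimic arrays were well apart from each other. The differences were -6.68 (SE 0.61, 102-fold, adjusted p = 0.0112), -6.89 (118-fold, adjusted p = 0.0121) and -6.29 (78.1-fold, adjusted p = 0.006). The mimic difference was -5.41 without mimic replicate 1 and still passed.

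The urate exchanger Slc22a12 (Urat1), which reabsorbs urate on the urine side, and the organic cation transporter Slc22a2 (Oct2), which takes up cations from blood, fell by much less but with little spread. Slc22a12 lay at 4.56 and 4.91 in normal mice, 3.33 and 3.60 in untreated, 3.49 and 3.78 in control-miRNA and 2.92 and 3.02 in mimic mice, with the mimic pair lowest. It was 2.41-fold lower in untreated (log2 difference -1.27, SE 0.18, adjusted p = 0.0278), 2.15-fold lower in control-miRNA (adjusted p = 0.0473) and 3.4-fold lower in mimic mice (adjusted p = 0.00697). Slc22a2 lay at 5.45 and 5.73 in normal mice and between 4.25 and 4.58 on all 6 db/db arrays, so that none of the db/db groups overlapped the normal pair; the untreated group overlapped both others, and the mimic pair (4.25 and 4.34) lay just below the control-miRNA pair (4.43 and 4.58). It was 2.28-fold lower in untreated (-1.19, SE 0.15, adjusted p = 0.0215), 2.12-fold lower in control-miRNA (adjusted p = 0.0347) and 2.45-fold lower in mimic mice (adjusted p = 0.00919). These smaller differences were less stable: over 16 alternative settings Slc22a12 passed in 9 for the untreated and 7 for the control-miRNA comparison, and Slc22a2 in 10 and 9.

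Slco3a1 encodes Oatp3a1, a widely expressed carrier of prostaglandins and thyroid hormone. It lay at 4.63 and 4.64 in normal mice, 3.53 and 3.38 in untreated, 3.45 and 3.36 in control-miRNA and 4.29 and 3.88 in mimic mice. The mimic pair sat between the normal pair and the other db/db arrays. The gene was 2.26-fold lower in untreated (-1.17, SE 0.16, adjusted p = 0.0262) and 2.34-fold lower in control-miRNA mice (adjusted p = 0.03), while the mimic difference of -0.55 missed the threshold (adjusted p = 0.086; -0.76 and adjusted p = 0.0302 without mimic replicate 1). Its 5 probes did not move alike: in untreated mice 3 passed with differences of -1.17 to -1.45, a dim probe gave -0.40 and another gave 0.03. Slco3a1 passed in 9 of 16 alternative settings in the untreated and in the control-miRNA comparison.

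**Figure D2:**
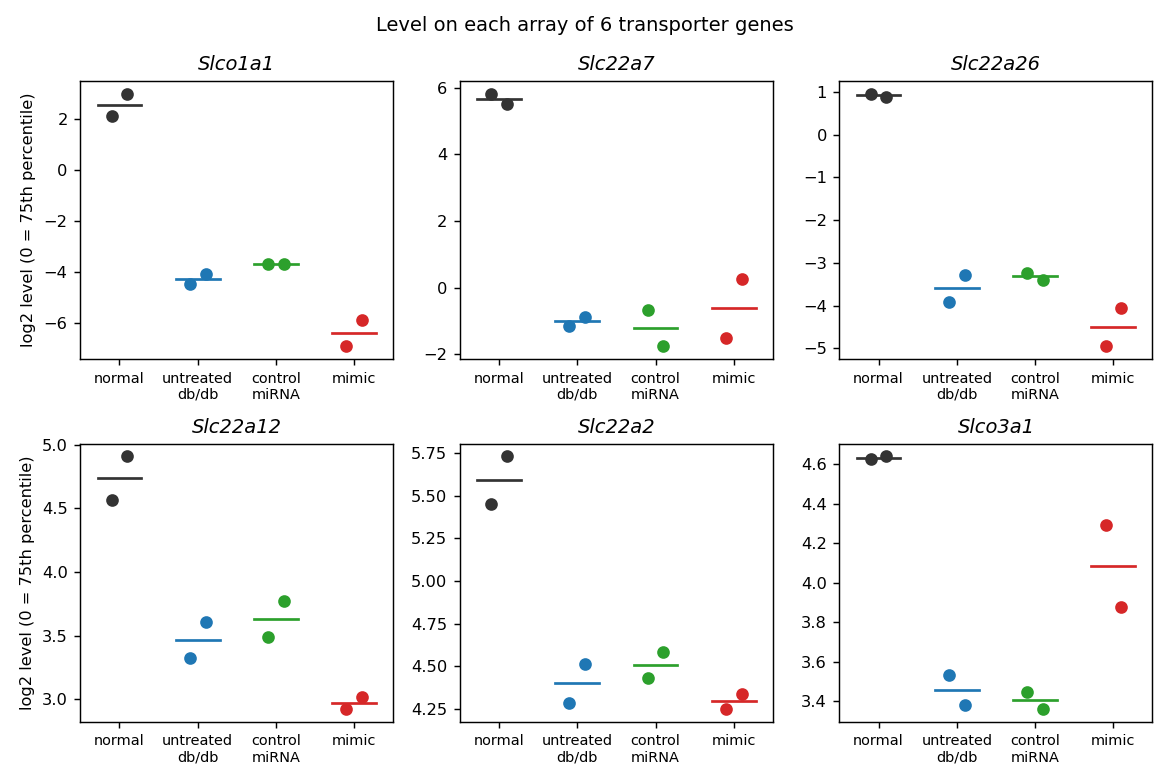
Level on each array (points; log2, 0 is the array's 75th percentile) and group mean (bars) of the 6 transporters that passed in both the untreated and the control-miRNA comparison with normal mice. The vertical axes differ between panels. The normal pairs lie above every db/db array in all 6 panels, by several log2 units for Slco1a1, Slc22a7 and Slc22a26. The gap is smaller for the others, and the mimic pair of Slco3a1 lies between its normal pair and the other db/db arrays.

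The 6 genes Slc22a19, Slc22a26, Slc22a27, Slc22a28, Slc22a29 and Slc22a30, all organic anion transporters, follow one another in that order among the SLC22 genes of mouse chromosome 19 (GRCm38.p6, 7673075 to 8405111), followed by Slc22a8 and Slc22a6. These neighbours did not shift together. In all 3 db/db groups Slc22a26 was far below normal and Slc22a19, Slc22a28 and Slc22a30 had lower means, whereas Slc22a27 and Slc22a29 had higher means. Most of these genes are known only from rodents.

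Slc22a26 lay at 0.96 and 0.88 in normal mice, -3.92 and -3.28 in untreated, -3.23 and -3.40 in control-miRNA and -4.96 and -4.05 in mimic mice. It was 22.9-fold lower in untreated (-4.52, SE 0.33, adjusted p = 0.00657), 18.8-fold lower in control-miRNA (adjusted p = 0.0115) and 42.9-fold lower in mimic mice (adjusted p = 0.00353), where only 1 of the 2 arrays was well above background. With normexp these folds were 9.88, 8.99 and 11.7. A second probe gave -3.86, -4.20 and -4.79. Slc22a19, which encodes Oat5, lay at 1.60 and 1.52 in normal mice, -1.39 and -1.20 in untreated, -1.48 and -0.80 in control-miRNA and -3.12 and -0.95 in mimic mice. Every db/db array was lower than the normal pair. With the spread of the mimic pair in the error only the mimic comparison passed (-3.60, SE 0.66, 12.1-fold, adjusted p = 0.0293). That difference was -2.51 without mimic replicate 1 and 7.86-fold with normexp, and its call was lost in 8 of 16 alternative settings. The untreated and control-miRNA differences of -2.86 and -2.70 did not pass (adjusted p = 0.0697 and 0.0927). Without mimic replicate 1 they passed, with adjusted p = 0.00551 and 0.00728.

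Slc22a28 lay at 4.10 and 4.40 in normal mice, 2.90 and 2.93 in untreated, 2.85 and 2.97 in control-miRNA, and -0.82 and 1.97 in mimic mice. Slc22a30 followed the same course with 4.19 and 4.46, 2.88 and 2.88, 3.06 and 3.01, and -0.72 and 2.13. Both passed in the mimic group only (-3.67 and -3.62, SE 0.80 and 0.82, adjusted p = 0.0448 and 0.048). Over 16 alternative settings the mimic call was lost in 9 for Slc22a28 and in 11 for Slc22a30. These mimic differences shrank to -2.28 and -2.19 without mimic replicate 1 and still passed. In untreated mice their differences were -1.33 and -1.44 (adjusted p = 0.357 and 0.329), and without mimic replicate 1 these passed (adjusted p = 0.00682 and 0.00574). The pair may not be independent readings: a Slc22a30 probe and a Slc22a28 probe share 50 of 53 aligned bases, so cross-hybridisation between these paralogs is possible and was not tested.

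Slc22a27 lay at -4.14 and -3.91 in normal mice, -0.74 and -0.70 in untreated, -1.27 and -1.38 in control-miRNA and -4.64 and -0.99 in mimic mice. Slc22a29 lay at -2.67 and -2.50 in normal mice, 0.94 and 0.90 in untreated, 0.39 and 0.53 in control-miRNA and -2.30 and 0.75 in mimic mice. In both genes 5 of the 6 db/db arrays were well above the normal pair, and mimic replicate 1 lay near it. Mean levels were 9.87-fold and 11.4-fold above normal in untreated mice, but neither passed with all 8 arrays (log2 differences 3.30 and 3.51, SE 1.04 and 0.87, adjusted p = 0.124 and 0.0809). With normexp the means were 3.78-fold and 7.11-fold above normal. Without mimic replicate 1 both passed in untreated mice (SE 0.12 for each, adjusted p = 0.000943 and 0.000792) and in control-miRNA mice (2.70 and 3.04, adjusted p = 0.00196 and 0.00127). A dimmer second Slc22a27 probe was not above background on any array.

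The next neighbours, Slc22a8 (Oat3) and Slc22a6 (Oat1), are the main basolateral uptake routes for organic anions and the classical route of para-aminohippurate. Slc22a6 lay at 6.92 and 7.40 in normal mice, 6.56 and 6.56 in untreated, 6.55 and 6.63 in control-miRNA and 6.77 and 6.40 in mimic mice. All 6 db/db arrays were below the normal pair, by 0.56 to 0.60 in the group means, but no comparison passed (adjusted p = 0.136, 0.179 and 0.118). Slc22a8 lay at 3.74 and 3.83 in normal mice, 3.86 and 4.12 in untreated, 4.28 and 3.84 in control-miRNA and 2.76 and 4.68 in mimic mice; the untreated difference of 0.20 had a 95% interval of -1.18 to 1.59.

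**Figure D3:**
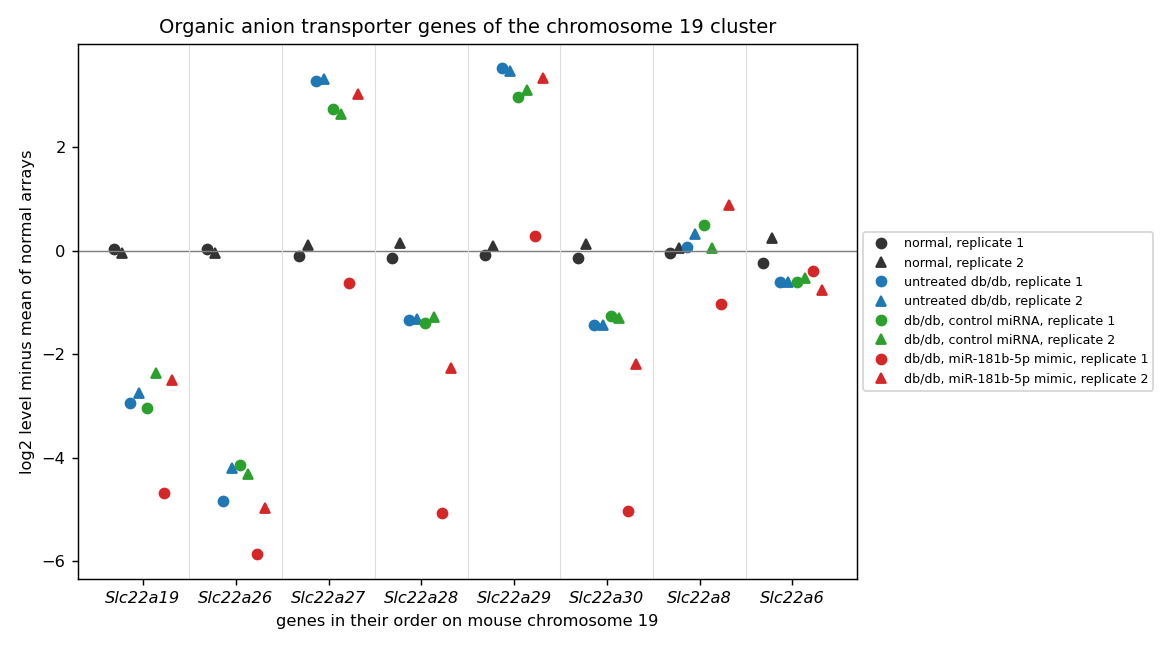
Log2 level minus the mean of the normal arrays for 8 organic anion transporter genes, in their order along mouse chromosome 19 and not to scale; each point is 1 array, coloured by group, with circles for replicate 1 and triangles for replicate 2. On the db/db arrays Slc22a29, and Slc22a27 except on mimic replicate 1, lie above 0 between genes that lie below it. Mimic replicate 1 (red circles) departs from the other db/db arrays in Slc22a19, in Slc22a27 to Slc22a30 and in Slc22a8.

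The 250 bases before the start of 5 genes of this run are shown because close neighbours had group means on opposite sides of normal. Slc22a29, the one with higher means, did not pass with all 8 arrays. The sequences come from RefSeq on GRCm38.p6, and all genes lie on the minus strand of chromosome 19. The bases read 5′ to 3′ towards the gene. Capitals mark, on either strand, CAAAGT (the start of an HNF4 site), AGAACA (a recognition unit of steroid receptors) and TTCNNNGAA (the STAT5 core); no 2 marked sites overlap.
Slc22a19 (chr19:7711311-7711560, minus strand): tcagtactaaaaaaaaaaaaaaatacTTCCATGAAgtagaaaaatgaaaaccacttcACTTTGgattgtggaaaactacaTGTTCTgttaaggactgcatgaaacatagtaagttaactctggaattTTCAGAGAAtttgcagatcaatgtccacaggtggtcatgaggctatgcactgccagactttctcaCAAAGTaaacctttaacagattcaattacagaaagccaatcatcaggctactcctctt
Slc22a26 (chr19:7802668-7802917, minus strand): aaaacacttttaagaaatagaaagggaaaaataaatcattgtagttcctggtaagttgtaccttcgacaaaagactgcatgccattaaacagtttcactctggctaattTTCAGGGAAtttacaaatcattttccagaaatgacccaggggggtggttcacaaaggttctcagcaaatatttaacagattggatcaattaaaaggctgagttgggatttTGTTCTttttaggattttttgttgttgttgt
Slc22a28 (chr19:8131983-8132232, minus strand): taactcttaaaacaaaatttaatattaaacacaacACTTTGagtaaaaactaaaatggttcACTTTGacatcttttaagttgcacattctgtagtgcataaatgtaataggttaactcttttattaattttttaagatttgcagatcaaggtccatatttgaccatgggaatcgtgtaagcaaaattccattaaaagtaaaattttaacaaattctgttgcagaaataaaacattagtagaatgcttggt
Slc22a29 (chr19:8218901-8219150, minus strand): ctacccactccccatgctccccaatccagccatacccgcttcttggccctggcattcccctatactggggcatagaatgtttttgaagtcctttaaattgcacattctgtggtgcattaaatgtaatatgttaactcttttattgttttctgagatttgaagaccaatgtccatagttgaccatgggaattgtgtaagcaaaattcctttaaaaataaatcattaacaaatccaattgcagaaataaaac
Slc22a30 (chr19:8405106-8405355, minus strand): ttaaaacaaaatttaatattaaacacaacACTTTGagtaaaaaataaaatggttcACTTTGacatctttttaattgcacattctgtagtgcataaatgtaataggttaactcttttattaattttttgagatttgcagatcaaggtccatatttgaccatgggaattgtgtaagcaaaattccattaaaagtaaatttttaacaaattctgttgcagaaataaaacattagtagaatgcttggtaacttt

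Slc22a28 and Slc22a30, which had lower means in db/db mice, were 93.0% identical over this window in a global alignment. Slc22a29, which had higher means, was 65.4% and 64.7% identical to them, and the other pairs ranged from 43.3 to 63.3%. The Slc22a19, Slc22a28 and Slc22a30 windows each hold 2 CAAAGT matches. The windows of Slc22a29 and of Slc22a26, which was far below normal, lack them. STAT5 cores were found in the windows of Slc22a19 and Slc22a26. Among 27025 promoters of the same length, one a gene, 12.5% held CAAAGT, 16.2% AGAACA and 7.2% TTCNNNGAA. Of the 35 transporter genes with a promoter in that table (of 41), 7, 4 and 5 held them. The listed start of Slc22a29 lies 34475 bases inside the annotated gene and that of Slc22a27 490 bases inside, so for these the window may not be the promoter in use; the Slc22a27 window is not shown. Matches describe letters and not bound sites.

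The other organic anion transporters were tested too. Slc22a13, an apical transporter of nicotinate and orotate, lay at 4.84 and 4.95 in normal mice and between 2.99 and 4.59 on the db/db arrays, all below the normal pair, with differences of -0.47, -0.46 and -1.21 that did not pass (adjusted p = 0.539, 0.579 and 0.121). Slc22a22, a prostaglandin transporter of rodent kidney, lay between 0.49 and 1.47 on 7 arrays and at -3.47 on mimic replicate 1. Slc22a13b-ps, named Slc22a13b in RefSeq, was dim, between -4.74 and -3.26, and its differences from normal changed sign between scalings in the control-miRNA and mimic groups.

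The organic cation transporter Slc22a3 (Oct3) did not pass, and was dim and scattered even between the normal mice, at -3.15 and -4.58. Among the genes of the carnitine and ergothioneine group, Slc22a5 (Octn2), which reabsorbs carnitine, lay at 3.98 and 4.65 in normal mice, 4.81 and 4.60 in untreated, 4.64 and 4.64 in control-miRNA and 4.99 and 4.92 in mimic mice. Its differences of 0.39, 0.33 and 0.64 did not pass (adjusted p = 0.336, 0.449 and 0.121), and the mimic pair was the only one above both normal values. Slc22a4 (Octn1), the ergothioneine transporter, lay at 1.30 and 1.95 in normal mice and between 1.35 and 1.47 in db/db mice other than mimic replicate 1, which was at 0.27. Slc22a21 (Octn3) and Slc22a16 stayed within 0.47 of normal in every group mean and did not pass; a second Slc22a5 probe matches the Slc22a21 probe at 43 of 58 aligned bases.

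Of the other SLC22 genes, Slc22a18, an imprinted gene of uncertain substrate, lay at 6.62 and 6.93 in normal mice and between 6.16 and 6.70 in db/db mice, with 5.04 on mimic replicate 1; its differences of -0.22, -0.35 and -0.90 did not pass (adjusted p = 0.831, 0.735 and 0.279). Slc22a23, an orphan member, was at 2.92 and 2.96 in normal mice and between 3.77 and 3.90 on 5 db/db arrays, with mimic replicate 1 at 2.65. Its differences of 0.87 and 0.88 in untreated and control-miRNA mice did not pass (adjusted p = 0.212 and 0.236) and did so without mimic replicate 1 (adjusted p = 0.00849 and 0.011). Slc22a17, the lipocalin-2 receptor, had differences of -0.72, -0.66 and -0.84, and did not pass with all 8 arrays. With either mimic array left out it passed in untreated mice. Slc22a15 was dim and did not pass.

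In the SLCO1 family, the dim Slco1a4 (Oatp1a4, a bile salt and digoxin carrier) lay at -4.22 and -3.35 in normal and -5.02 and -4.67 in untreated mice. It was not well above background on any array of the control-miRNA group (-4.89 and -6.53) or the mimic group (-7.15 and -6.18), and was at least 2.33-fold lower than normal in the latter (adjusted p = 0.0418). This call was lost without mimic replicate 1 (adjusted p = 0.0976) and in 9 of 15 alternative settings in all, and with normexp the Slco1a4 difference was -0.71, or 1.63-fold, below that bound. Slco1a6, a kidney member of the same gene cluster on chromosome 6, lay at 3.37 and 4.04 in normal mice, 3.67 and 3.41 in untreated, 3.43 and 3.18 in control-miRNA and 2.21 and 3.49 in mimic mice, and did not pass (adjusted p = 0.85, 0.636 and 0.235). Slco1a1, its neighbour, had fallen by 6.84 on the log2 scale in the untreated mice in which Slco1a6 differed by -0.16 on its brighter probe. A second, dimmer Slco1a6 probe lay at -0.86 and -0.33 in normal mice. It was lower on every db/db array, at -1.42 and -1.35 in untreated mice.

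Slco4c1, a basolateral carrier of digoxin and uremic toxins, lay at -0.96 and -1.02 in normal mice, -1.71 and -1.44 in untreated, -1.74 and -1.24 in control-miRNA and -2.61 and -2.01 in mimic mice. The mimic pair was lowest, and only that comparison passed (-1.32, SE 0.26, 2.49-fold, adjusted p = 0.034; -0.58 and -0.50 in the others, adjusted p = 0.226 and 0.324). The call was lost without mimic replicate 1 (-1.02, adjusted p = 0.0603) and in 9 of 16 alternative settings in all. Slco2a1, the prostaglandin transporter, lay at 1.06 and 1.00 in normal mice and between 1.20 and 1.90 in db/db mice, with differences of 0.30, 0.25 and 0.52 (adjusted p = 0.471, 0.577 and 0.189). Of its 3 tested probes 2 were higher and 1 lower, the lower one at -0.74 and the higher ones up to 0.68 in untreated mice. Slco2b1 (Oatp2b1, a carrier of sulfated steroids) lay at 0.40 and 0.37 in normal mice, 1.01 and 1.02 in untreated, 0.81 and 0.75 in control-miRNA and 0.41 and -0.12 in mimic mice. It was 1.55-fold above normal in untreated mice (0.63, SE 0.18, adjusted p = 0.105), and this difference passed without mimic replicate 1. A dimmer second Slco2b1 probe showed no such rise, at -2.59 and -2.62 in normal and -2.58 and -2.57 in untreated mice. Slco4a1 (Oatp4a1, a thyroid hormone carrier) did not pass. On its brightest probe the 2 normal mice alone ranged from 0.56 to 2.90, which covers every db/db value. A second probe lay at -1.80 and -2.19 in normal mice and between -3.15 and -2.37 on the db/db arrays. In untreated mice 2 of the 3 tested Slco4a1 probes were lower and 1 was higher, and 0 passed.

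The second question was whether the nanoparticles or the mimic changed the transporters within db/db mice. None of the 32 genes passed in limma between control-miRNA and untreated db/db mice, where 0.0% of all genes were called. At an unadjusted p under 0.05 there were 0 members there, beside 724 genes in all, and the median difference of the members was 0.01. For the mimic against untreated mice and against control-miRNA mice, 0 members passed as well (0.0% of all genes in each), while 9 and 8 members had an unadjusted p under 0.05, beside 3103 and 2081 genes in all. The median member difference was -0.51 and -0.50, against -0.05 and -0.04 over all genes. Without mimic replicate 1 the same medians were -0.08 and -0.05 and again 0 members passed (0.0% and 0.501% of all genes), whereas with replicate 1 as the lone mimic array 18 members (16 lower, 2 higher) and 16 members (14 lower, 2 higher) passed beside 18.6% and 13.8% of all genes, a lone sample being assumed to vary like the other groups.

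The labels used here do not give the sequence of the delivered strand. Pairing of the seed with a transcript is the main rule of miRNA targeting. The mature miR-181b-5p, for which the mimic is named, is shown here from RefSeq with its seed, bases 2 to 8, in capitals.
miR-181b-5p: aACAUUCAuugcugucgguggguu
Its level in the kidneys was not analysed here, and no search for its sites was made.

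Against control-miRNA mice the smallest adjusted p among the members was that of Slco1a1 (-2.70, SE 0.42, adjusted p = 0.14), which was at least 2.51-fold lower, with both mimic arrays below background. Slco3a1 was the one member higher on both mimic arrays than on every untreated and control-miRNA array with an unadjusted p under 0.05, by 0.62 against untreated (adjusted p = 0.221) and 0.68 against control-miRNA mice (95% interval 0.28 to 1.07, adjusted p = 0.286). Its 5 probes were mixed: against control-miRNA mice 4 were higher and 1 differed by -0.12, and against untreated mice 3 were higher and 2 lower, down to -0.39. Slc22a12 differed by -0.66 (95% interval -1.10 to -0.22, adjusted p = 0.366), Slco2b1 by -0.63 (-1.07 to -0.19, adjusted p = 0.378), Slco4c1 by -0.82 (-1.44 to -0.20, adjusted p = 0.416) and Slc22a26 by -1.19 (SE 0.33, adjusted p = 0.371). With normexp the differences of the dim Slco1a1 and Slc22a26 were smaller, at -0.55 and -0.38. For Slco1a1 this was 1.46-fold, below the 2.51-fold bound.

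The 2 mimic mice gave the same reading for some members and not for others. Slc22a28 and Slc22a30 were lower than in control-miRNA mice on both arrays, with differences of -2.33 in each case, but replicate 1 minus replicate 2 was -2.79 and -2.85. For Slc22a22, Slc22a27 and Slc22a29 replicate 1 minus replicate 2 was -3.98, -3.65 and -3.05, and the intervals of their mimic differences all include 0. For Slc22a6, Slc22a2 and Slc22a5 this gap was 0.36, -0.09 and 0.07, and their differences from control-miRNA mice were -0.01 (95% interval -0.49 to 0.47; 0.01 with the deposited series table), -0.21 (-0.58 to 0.16) and 0.31 (-0.23 to 0.86).

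**Figure D4:**
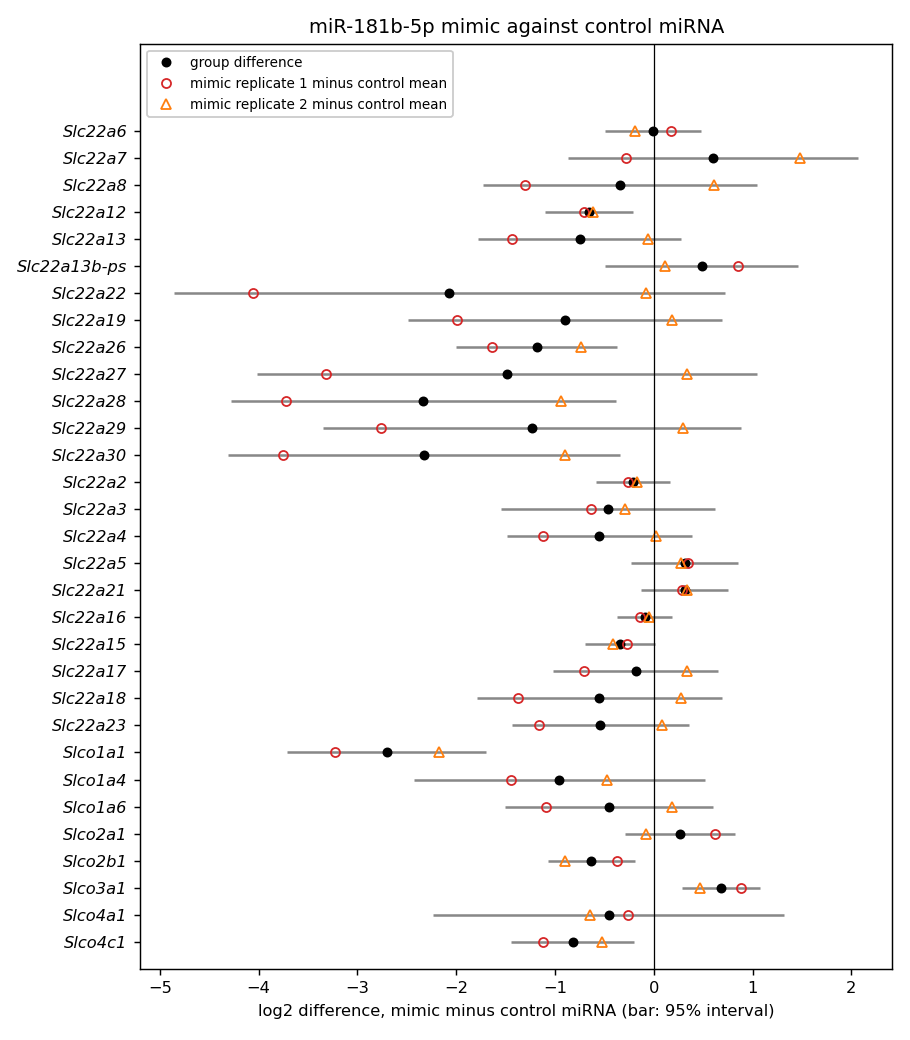
Log2 difference between the mimic and the control-miRNA group for 31 of the 32 tested genes (black points, with 95% intervals from the limma fit as bars), and each mimic array minus the control-miRNA mean (open circles, replicate 1; open triangles, replicate 2). No gene passed after adjustment; replicate 1 lies to the left of replicate 2 in 23 of the 31 rows.

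Transporters that work beside these families were read from a list of 23, of which 22 were tested. In untreated mice 1 rose and 1 fell, in control-miRNA mice 1 rose and 0 fell, and in mimic mice 3 rose and 2 fell, beside the 3.5%, 1.87% and 8.98% of all genes called. Abcc4 (Mrp4), which exports urate and organic anions into urine, rose in all 3 groups, by 1.72, 1.65 and 1.25 (adjusted p = 0.032, 0.045 and 0.043), from 1.41 and 1.17 in normal mice to between 2.17 and 3.13 in db/db mice. Slc17a3, a voltage-driven exporter of urate and organic anions, fell in untreated and mimic mice, by 1.41 and 1.20 (adjusted p = 0.048 and 0.045), and had a difference of -1.28 in control-miRNA mice (adjusted p = 0.071). In mimic mice the bile acid transporter Slc10a2 fell by 0.91 (adjusted p = 0.03), and the exporters Abcc3 and Abcb1b rose by 1.66 and 1.14 (adjusted p = 0.039 and 0.019). Without mimic replicate 1 the counts became 2 risen and 3 fallen, 1 and 4, and 3 and 1, beside 14.9%, 11.4% and 8.48% of all genes. The mimic calls of Slc10a2 and Abcc3 were among those lost (adjusted p = 0.058 and 0.0859). The cation exporter Slc47a1 (Mate1), partner of Slc22a2, had differences of -0.53, -0.58 and -0.85 that did not pass (adjusted p = 0.257, 0.254 and 0.09), and Abcg2 and Abcc2 did not pass.

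All 21 listed scaffolds and regulators were tested, of which 2 fell in untreated and in control-miRNA mice and 3 fell and 2 rose in mimic mice, beside the same 3.5%, 1.87% and 8.98% of all genes. Ghr, the growth hormone receptor, fell by 1.15, 1.22 and 1.54 (adjusted p = 0.031, 0.036 and 0.008), from 5.19 and 5.48 in normal mice to between 3.60 and 4.24. Nr1i3 (CAR), a nuclear receptor for foreign compounds, fell by 1.19, 1.15 and 1.24 (adjusted p = 0.017, 0.026 and 0.008). In mimic mice the estrogen receptor Esr1 fell by 1.59 (adjusted p = 0.019), and Nr1i2 (PXR) and the scaffold Slc9a3r2 rose by 0.93 and 0.51 (adjusted p = 0.042 and 0.047). Without mimic replicate 1, 3 fell and 2 rose in every db/db group, beside 14.9%, 11.4% and 8.48% of all genes. Hnf4a, which drives many proximal tubule genes, differed from normal by -0.06 to 0.20 and did not pass. Among the 15 proximal tubule markers, Keg1 fell in untreated mice, 0 passed in control-miRNA mice, and Keg1, Kap and Slc7a13 fell in mimic mice. These calls stand beside the same 3.5%, 1.87% and 8.98% of all genes. Slc7a13 differed by -2.56, -2.92 and -4.42 (adjusted p = 0.057, 0.056 and 0.009). In untreated mice 5 of the 15 markers had differences above 0, Gatm, Slc5a2 and Slc5a12 among them, and 10 had differences below 0. The part of these genes in the transporter results was not tested.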

How the data were processed

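RNA of 8 kidneys, 2 mice in each of 4 groups taken from the labels, was measured on 8 one-colour arrays. The authors deposited scanner intensity per spot from Agilent Feature Extraction 12.0.3.1, per the file headers already background-subtracted and detrended, and a series table of linear ratio values per probe with an unstated scale, which tracked the scanner values with each gene centred (r of at least 0.999, column medians 0.971 to 1.08). Here log2 intensity minus each array's 75th percentile over non-control spots was used. Outlier spots were left out and spots of a probe averaged. Probes had to be well above background in both mice of any group. The probe with the highest mean level stood for its gene. R 4.3.3 and limma 3.58.1 fitted all 22367 genes over the 8 arrays, with Benjamini-Hochberg adjustment and a threshold of 0.05; 95% intervals come from that fit. An exact permutation test of 2 against 2 arrays cannot go below 0.333 and was not used. The fit was tested on simulated data. P-values set each difference against the spread between mice within groups, pooled over all 4 groups and moderated across genes. Named genes are all members that passed, 16 kidney transporters and listed partners, regulators and markers; the members and lists were chosen with earlier results of these data known. Some tested genes are not reported here. Array names were kept, with RefSeq GRCm38.p6 used for promoters and gene order. Microarray number, not sequencing depth, limits the precision.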

Additional observations from a re-analysis of the deposited data

How the results depend on the processing

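The 6 counts of transporters passing were recomputed under 8 alternatives and with each of the 8 arrays left out. With quantile normalization, normexp background correction (offset 50), a filter on all 8 arrays, every probe tested or the deposited series table, they stayed within 1.5 times of the reported counts. With no filter on dim probes they were 3 in the control-miRNA and 5 in the mimic comparison with normal mice, against 0.345% and 3.12% of all genes, when 41 genes of the families were among those tested. With only the compared groups in the fit they were 13, 11 and 2 in the untreated, control-miRNA and mimic comparisons with normal mice, against 10.6%, 4.27% and 0.0984% of all genes. Leaving out 1 array gave 1 to 14, 0 to 12 and 4 to 19 in those comparisons, 0 to 18 for the mimic against untreated, 0 to 16 for the mimic against control-miRNA and 0 in every case for control-miRNA against untreated mice. Replicate numbers did not pair the mice (same-numbered arrays deviated together with r of -0.019 to 0.159), and the replicate block gave 6, 6 and 8 transporters in the comparisons with normal mice. None of the 22 called differences changed direction; 19 passed after quantile normalization, 22 with normexp, 12 with no filter, 13 with only the compared groups, 20 with the block, 20 without mimic replicate 1 (Slco1a4 and Slco4c1 were lost in the mimic group) and 22 without mimic replicate 2. Leaving out 1 normal, untreated or control-miRNA array kept 6 to 10 of the 22 and lost 12 to 16. The cause of these shifts was not tested. Leaving out any 1 array left 3 residual degrees of freedom instead of 4, both where counts rose and where they fell. Signal over background limits Slco1a1, Slco1a4 and Slc22a26 in the mimic group, where levels are bounds or rest on 1 array.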
